A study of Mus musculus with 6 samples.

Results

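ETn and MMETn elements, a family of mouse LTR retrotransposons, were followed in an eCLIP experiment on the protein Gtsf1. Their copies were taken from the LTR class of the deposited annotation as every feature whose name contained ETn in any letter case. This gave 3760 of the 1753368 features with a read in at least 1 library, and of the 191758 LTR copies among them. The copies carried 5 names. Those ending in -int, for the internal portion of an element, were MMETn-int (818 copies), ETnERV-int (716 copies), ETnERV2-int (813 copies) and ETnERV3-int (331 copies). The remaining 1082 copies were named RLTRETN_Mm, an LTR. Of the 3760 copies, 324 passed a filter of a mean of at least 1 RPM (the usual scaling of a count to the size of its library) over the 4 crosslinked libraries and were described singly, and these held 93.1% of the mean ETn RPM of those libraries. The other 3436 copies entered only the sums per name.

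An LTR retrotransposon copies itself through an RNA that runs from one of its long terminal repeats to the other, so its RNA is both its transcript and the template of new insertions. ETn ("early transposon") elements are transcribed in the early mouse embryo and in embryonal carcinoma cells, lack the genes needed to move by themselves, and depend on proteins made by coding relatives. The copies followed here were chosen by name, so they may include coding relatives, and which of them can code was not examined. Gtsf1, also called Asterix, is a zinc-finger protein of the piRNA pathway, in which small RNAs guide the silencing of transposons in the germ line.

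All 6 libraries came from P19 cells, a mouse embryonal carcinoma line, transiently transfected with mouse Gtsf1 that carried a C-terminal TEV-Strep tag and was driven by the EF-1alpha promoter in the vector pEF. Cells irradiated at 254 nm gave the crosslinked inputs (n = 2) and the crosslinked pull-downs (n = 2). Cells without irradiation gave a single non-crosslinked input (n = 1) and its pull-down (n = 1). The pull-down was the material held by MagStrep beads, and the input was lysate set aside before it, after treatment with RNase I. Every library therefore came from cells given the tagged protein, and no library of untransfected cells was analysed here. The labels do not say whether same-group libraries came from separate cultures, so the p-values measure only the spread between these libraries.

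Library totals ran from 13168593 to 18418166 reads, and 1 read was worth 0.0543 to 0.0759 RPM. RPM was scaled to all reads of a library, and reads without annotation made up 6.99% to 8.86% of the 3 inputs and 12.7% to 14.4% of the 3 pull-downs. Gtsf1, summed over its features, was at 91.8 and 88.7 RPM in the crosslinked inputs and at 206 and 451 RPM after the pull-down. Without crosslinking it was at 71.0 RPM in input and 56.1 RPM after the pull-down. The 8 embryonal carcinoma markers checked, among them Pou5f1 and Lin28a, summed to 225 and 199 RPM in the crosslinked inputs and to 178 and 169 RPM in the crosslinked pull-downs. Both pull-downs lay below both inputs for 4 of these 8 markers and above them for 0. The 8 markers of endoderm, mesenchyme and blood summed to 2.57 and 2.44 RPM in those inputs and to 7.70 and 8.49 RPM in the pull-downs, and 5 of the 8 were above both inputs in both pull-downs. Of these 8, Sox17 and Afp were listed at 0 in the inputs. The part of these differences in the ETn results was not tested.

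ETn RNA was abundant in the inputs and came almost entirely from the internal portions named MMETn-int and ETnERV-int. All ETn copies together held 0.477% of the reads in crosslinked input 1 (95% Wilson interval 0.474 to 0.480%) and 0.386% in crosslinked input 2 (0.383 to 0.389%). The non-crosslinked input, with 0.429% (0.425 to 0.432%), lay between them. Within the ETn reads of the crosslinked inputs, MMETn-int made up 79.2 ± 0.695% and ETnERV-int 18.6 ± 0.635% (SD, n = 2 each). ETnERV2-int made up 1.08 ± 0.0793%, RLTRETN_Mm 0.996 ± 0.0151% and ETnERV3-int 0.154 ± 0.00393% (SD, n = 2 each). These shares count reads and are not per length, since the lengths of the copies were not used here, and in bulk RNA fewer cells with ETn RNA and less ETn RNA per cell cannot be told apart.

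The reads were spread over many copies. The 10 copies with the most reads held 25.9% and 25.3% of the ETn reads of the crosslinked inputs, and 24.2% and 25.1% of those of the pull-downs. Ranked by reads, 29 copies were needed to reach 50% of the ETn reads in each crosslinked input, and 32 and 33 copies in the crosslinked pull-downs. The highest reads therefore sat on a similar number of copies before and after the pull-down.

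The design asks which RNAs are held with Gtsf1, and so compares the pull-down with the input. ETn RNA took a smaller share of both crosslinked pull-downs than of both inputs. MMETn-int, the most abundant name, was lower in the pull-downs, and none of the 5 names was higher by the test. The summed ETn level was 4771 and 3861 RPM in crosslinked inputs 1 and 2 and 2722 and 2053 RPM in crosslinked pull-downs 1 and 2. The means were 4316 ± 643 and 2388 ± 473 RPM (SD, n = 2 each), a pull-down over input ratio of 0.553, and the ratio was 0.571 in the pair numbered 1 and 0.532 in the pair numbered 2. The groups did not overlap, but edgeR's quasi-likelihood test with Benjamini-Hochberg adjustment over 39065 features did not call the sum, with a log2 ratio of -0.76 (SE 0.20, adjusted p = 0.0837). As a share of the library, the exact permutation test (two-sided) gave p = 0.33, the smallest that 2 libraries against 2 allow (0.500 adjusted over the 6 shares tested).

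Whether the sum was called depended on the setting. limma on log2(RPM + 1) gave -0.86 with an adjusted p of 0.0330, and edgeR without crosslinked input 2 gave -0.89 with an adjusted p of 0.00589. Each of the other settings that used all copies kept a ratio below 0 without a call.

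**Figure D1:**
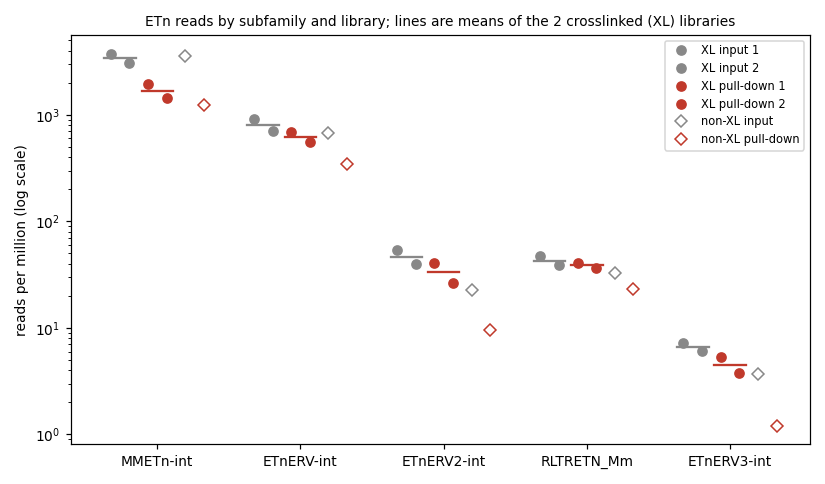
Summed RPM (log scale) of the 5 ETn names in each of the 6 libraries, grey for inputs and red for pull-downs, filled circles for crosslinked (XL) and open diamonds for non-crosslinked libraries, with lines at the means of the 2 crosslinked libraries of a group. MMETn-int has a mean of 3416 RPM in the crosslinked inputs and 1691 RPM in the pull-downs, while the ETnERV2-int and RLTRETN_Mm groups overlap.

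MMETn-int stood at 3755 and 3077 RPM in the crosslinked inputs and at 1951 and 1431 RPM in the crosslinked pull-downs. Both pull-downs lay below both inputs. The means were 3416 ± 479 and 1691 ± 367 RPM (SD, n = 2 each), a ratio of 0.495. edgeR's test on the table in which transposon copies were summed by name gave a log2 ratio of -0.92 (SE 0.21, adjusted p = 0.0496), so that 1 of the 5 names was called lower and 0 higher. Over all 39069 features of that table, 5.33% were called higher and 2.72% lower, and at an unadjusted p under 0.05 MMETn-int was again the only ETn name to pass. DESeq2 and limma also called 0 of the 5 names higher. MMETn-int was called lower by limma too (-1.02, adjusted p = 0.0200), and by edgeR over the 677 transposon names alone (-0.92, adjusted p = 0.00346). The call lay close to the threshold: it was lost with TMM factors (-0.72, adjusted p = 0.117), with rRNA left out (-0.81, adjusted p = 0.259), with DESeq2 (-0.73, adjusted p = 0.337), without crosslinked pull-down 2 (-0.73, adjusted p = 0.197) and with no filter on low values (adjusted p = 0.884), each with the same direction.

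ETnERV-int, the internal portion with the second most reads, was at 907 and 699.8 RPM in the crosslinked inputs and at 685 and 555 RPM in the crosslinked pull-downs. Its pull-downs also lay below both inputs, but input 2 and pull-down 1 were close to each other. The means were 804 ± 147 and 620 ± 91.7 RPM (SD, n = 2 each), a ratio of 0.772, and edgeR gave a log2 ratio of -0.28 (SE 0.20, adjusted p = 0.468).

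The 3 remaining names had few reads. ETnERV2-int was at 54.2 and 39.5 RPM in the inputs and at 40.4 and 26.6 RPM in the pull-downs, and the groups overlapped (log2 ratio -0.39, SE 0.25, edgeR adjusted p = 0.421). ETnERV3-int was at 7.21 and 6.05 RPM in the inputs and at 5.33 and 3.74 RPM in the pull-downs, which lay below (log2 ratio -0.45, SE 0.20, edgeR adjusted p = 0.262). The LTR RLTRETN_Mm was at 47.0 and 38.9 RPM in the inputs and at 40.5 and 36.7 RPM in the pull-downs, with overlap (log2 ratio -0.06, SE 0.17, edgeR adjusted p = 0.860). The sign of the last ratio was not stable, as it turned to 0.14 with TMM factors.

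The make-up of the ETn reads differed between input and pull-down by more than the spread within either group. MMETn-int made up 78.7% and 79.7% of the ETn reads in the crosslinked inputs and 71.7% and 69.7% in the crosslinked pull-downs. The share of ETnERV-int went from 19.0% and 18.1% to 25.2% and 27.0%, and that of RLTRETN_Mm from a mean of 0.996% to 1.64%. Without crosslinking, MMETn-int went from 82.7% to 76.3% and ETnERV-int from 15.9% to 21.6%, the same directions. ETnERV3-int, the name with the fewest reads, went from 0.154% to 0.189% with crosslinking and from 0.0863% to 0.0751% without it. Its values without crosslinking rest on 52.4 reads in the input and 15.9 reads in the pull-down. For each of the 5 names the exact permutation test over the crosslinked libraries returned its smallest possible value, a two-sided p = 0.33 (0.33 adjusted over the 5 names).

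Most single copies were lower in the pull-down. Of the 324 tested copies, 300 had an edgeR log2 ratio below 0 (92.6%, against 75.0% of all tested features). The median ratio was -0.82, with quartiles of -1.10 and -0.45 and a range from -2.44 to 1.58. Over all 39872 tested features the median was -0.21. At an adjusted p under 0.05 in edgeR's quasi-likelihood test, 139 copies (42.9%) were called lower, where 3.5% of all tested features were, and 14 copies (4.32%) were called higher, where 6.44% of all tested features were. At an unadjusted p under 0.05, 237 of the 324 copies passed, against 22.8% of all tested features.

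The raw order of the libraries showed the same picture. Both pull-downs lay below both inputs for 267 of the 324 copies (82.4%), where this held for 57.7% of all tested features. Both lay above for 17 copies (5.25%), where this held for 10.8% of all tested features, and the groups overlapped for the remaining 40. The filter could pass a copy through 1 group alone: 37 copies reached a mean of 1 RPM in the inputs but not in the pull-downs, and 5 only in the pull-downs. Among the 282 copies that reached it in both groups, the median log2 ratio was -0.82, with 126 called lower and 12 higher.

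The number called lower depended on single libraries and on the setting. It was 55 without crosslinked pull-down 2 and 75 without crosslinked input 1, where 2.09% and 2.32% of all tested features were called lower, and DESeq2, which also scales the libraries differently, called 19 lower and 11 higher at the same threshold, where 0.599% of all tested features were called lower and 6.31% higher. TMM factors, which moved the median of all features from -0.21 to about 0, left 95 copies called lower and 15 higher, where 1.57% of all tested features were called lower and 6.89% higher.

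**Figure D2:**
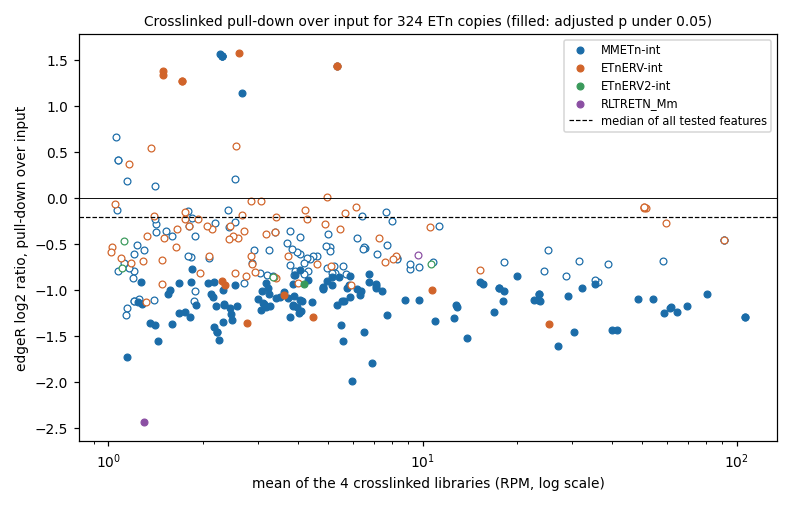
edgeR log2 ratio of crosslinked pull-down over crosslinked input (vertical axis) against the mean level over the 4 crosslinked libraries in RPM (horizontal axis, log scale) for the 324 tested copies, coloured by name and filled where the adjusted p was under 0.05. Most points lie below the dashed line, the median of all tested features at -0.21, and the filled points above 0 lie between 1.49 and 5.33 RPM.

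The calls were unevenly spread over the names. Of the 236 tested MMETn-int copies, 130 were called lower and 7 higher, and their median log2 ratio was -0.93. Of the 81 tested ETnERV-int copies, 7 were called lower and 7 higher, with a median of -0.41. The 5 tested ETnERV2-int copies had a median of -0.77, with 1 called lower, and no ETnERV3-int copy reached 1 RPM. Of 2 tested RLTRETN_Mm copies, RLTRETN_Mm_dup989 was called lower and RLTRETN_Mm_dup344 was not (log2 ratio -0.62, edgeR adjusted p = 0.114).

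By level, the median ratio was -0.78 for the 203 copies with a mean of 1 to 5 RPM, -0.84 for the 82 copies from 5 to 20 RPM and -1.04 for the 39 copies of 20 RPM or more. Of these 39, 23 were called lower and 0 higher. Among them, 32 were MMETn-int copies, with a median of -1.08 and 22 called lower, and 7 were ETnERV-int copies, with a median of -0.11 and 1 called lower. Of the 14 copies called higher, 11 lay between 1 and 5 RPM and 3 between 5 and 20 RPM. Over all tested features, at any level, 3.5% were called lower and 6.44% higher, and these shares were not split by level.

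The copies with the highest levels had near-equal partners. MMETn-int_dup212, the highest, was at 170 and 138 RPM in the crosslinked inputs and at 70.4 and 48.0 RPM in the crosslinked pull-downs. Both pull-downs were well below both inputs, and edgeR gave a log2 ratio of -1.29 (SE 0.24, adjusted p = 0.0219). MMETn-int_dup757 had values within 1 RPM of these in every library and the same call, with an edgeR adjusted p of 0.0218.

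The next 3 by level also had near-equal values, although they carry different names. ETnERV-int_dup179 was at 124 and 91.8 RPM in the crosslinked inputs and at 80.9 and 67.0 RPM in the pull-downs of crosslinked cells, while MMETn-int_dup758 and MMETn-int_dup211 matched it within 5% in every library. The pull-downs lay below the inputs, by a log2 ratio of -0.45 (SE 0.22, edgeR adjusted p = 0.280), which did not pass. So 2 of the 5 highest copies were called lower and the other 3 were not.

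Copies were grouped as likely to share reads where their values lay within 5% or 0.05 RPM of each other in all 6 libraries. The 324 copies then formed 296 groups, of which 20 held more than 1 copy, 48 copies in all, with at most 4 in a group. In 5 of the groups copies of different names came together. No tested copy had a whole number of reads (within 1e-06 of a read) in all 6 libraries. The deposited counts hold fractions where a read matched more than 1 feature, so the copies are not independent measurements of one another. The 139 copies called lower fell into 133 such groups, and the 14 called higher into 7.

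The copies that were higher in the pull-down were few and had low levels. Together they held 1.17% of the ETn RPM of the crosslinked libraries, where the copies called lower held 50.4%. ETnERV-int_dup365 was at 1.27 and 1.46 RPM in the crosslinked inputs and at 4.12 and 3.57 RPM in the pull-downs. This was the highest ratio among the 324, with a log2 ratio of 1.58 (SE 0.17, edgeR adjusted p = 0.00215).

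MMETn-int_dup760 was the copy called higher with the most reads. It was at 3.09 and 2.91 RPM in the crosslinked inputs and at 8.00 and 7.30 RPM in the pull-downs, so both pull-downs stood clear of both inputs. edgeR gave a log2 ratio of 1.44 (SE 0.15, adjusted p = 0.00191). ETnERV-int_dup177 and ETnERV-int_dup740 had identical values in all 6 libraries, so these 3 calls rest on 1 set of values.

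MMETn-int_dup79 was at 1.07 and 1.35 RPM in the inputs and at 3.56 and 3.23 RPM in the pull-downs (log2 ratio 1.55, SE 0.18, edgeR adjusted p = 0.00293). Its values were the same as those of MMETn-int_dup884 and MMETn-int_dup913 and within the tolerance of those of MMETn-int_dup418. MMETn-int_dup553 was at 1.14 and 1.24 RPM in the inputs and at 3.86 and 2.83 RPM in the pull-downs (log2 ratio 1.57, SE 0.21, edgeR adjusted p = 0.00578). The other 5 copies called higher, MMETn-int_dup675 and ETnERV-int_dup552, _dup562, _dup6 and _dup543, had log2 ratios from 1.14 to 1.38. ETnERV-int_dup6 and _dup543 passed the filter through the pull-downs alone.

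Among the copies called lower, RLTRETN_Mm_dup989 had the ratio farthest from 0. It was at 2.61 and 1.84 RPM in the crosslinked inputs and at 0.496 and 0.247 RPM in the pull-downs, a log2 ratio of -2.44 (SE 0.34, edgeR adjusted p = 0.00618). It passed the filter of 1 RPM through the inputs alone, the group where it was high. All RLTRETN_Mm copies together had a pull-down over input ratio of 0.899 in RPM.

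MMETn-int_dup827 was at 13.2 and 6.14 RPM in the inputs and at 1.87 and 2.62 RPM in the pull-downs. As a ratio, though not in RPM, its inputs differed from each other more than those of the other named copies. Its call (log2 ratio -1.995, SE 0.40, edgeR adjusted p = 0.0291) was lost with TMM factors (adjusted p = 0.0513), with the replicate number as a block (adjusted p = 0.0559), without crosslinked pull-down 1 (log2 ratio -1.75) and with no filter on low values (adjusted p = 0.701). MMETn-int_dup27 was at 11.8 and 9.97 RPM in the inputs and at 3.41 and 2.49 RPM in the pull-downs (log2 ratio -1.80, SE 0.20, edgeR adjusted p = 0.00225). It kept its call under each alternative but the one with no filter.

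MMETn-int_dup616, at 45.5 and 37.3 RPM in the inputs and at 14.7 and 10.8 RPM in the pull-downs, was the named lower copy with the most reads after MMETn-int_dup212 and its partner (log2 ratio -1.61, SE 0.21, edgeR adjusted p = 0.00509). MMETn-int_dup639 was at 1.94 and 1.63 RPM in the inputs and at 0.586 and 0.435 RPM in the pull-downs (log2 ratio -1.73, SE 0.24, edgeR adjusted p = 0.00585), and DESeq2 did not call it (adjusted p = 0.171). It too passed the filter through the inputs alone.

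**Figure D3:**
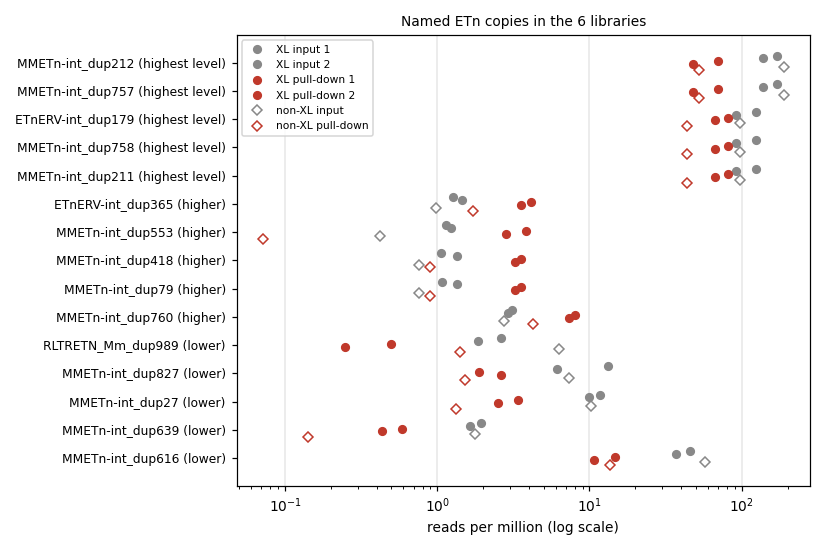
RPM (log scale) of the 15 named single copies in the 6 libraries, grey for inputs and red for pull-downs, filled for crosslinked (XL) and open for non-crosslinked libraries, with the reason for naming in brackets. MMETn-int_dup212 and MMETn-int_dup757 coincide, as do ETnERV-int_dup179, MMETn-int_dup758 and MMETn-int_dup211, with values within 5% or 0.05 RPM of each other in all 6 libraries.

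Without crosslinking, protein and RNA are not joined covalently, so that pair of libraries shows what the beads hold otherwise. ETn reads were lower in this pull-down too. All ETn copies together were at 4287 RPM in this input and at 1605 RPM in its pull-down, a ratio of 0.374, below the 0.571 and 0.532 of the crosslinked pairs. MMETn-int went from 3545 to 1224 RPM (ratio 0.345) and ETnERV-int from 683 to 346 RPM (ratio 0.508). ETnERV2-int went from 22.9 to 9.51 RPM (ratio 0.415), RLTRETN_Mm from 32.5 to 23.2 RPM (ratio 0.714) and ETnERV3-int from 3.70 to 1.21 RPM (ratio 0.326). All 5 ratios lay below those of both crosslinked pairs.

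This difference did not pass the test, which does not show that the ratios were equal. In edgeR's interaction term over all 6 libraries, which assumes that the lone non-crosslinked libraries vary like the crosslinked ones, the crosslinked log2 ratio exceeded the other by 0.55 for all ETn (SE 0.34, adjusted p = 0.472) and by 0.51 for MMETn-int (adjusted p = 0.509). The median of this term over all tested features was 0.56, so the ETn values lay at the level of the features at large, and with TMM factors the term for all ETn was -0.04 (adjusted p = 0.999). In the fit without these factors, most features were introns (median 0.71) and exons (0.35). The medians were -0.01 for the other LTR copies, -0.02 for LINE copies and -0.12 for SINE copies. Among the LTR groups compared, the medians were 0.63 for the single MERVL copy, 0.45 for MMERVK10C with MMERVK9, 0.14 for the other RLTR names and -0.92 for IAP. Among the single ETn copies, 300 (92.6%) had a term above 0, as had 77.6% of all tested features. Their median was 0.49, and 0 were called, as for 0.0% of all tested features. At an unadjusted p under 0.05, 42 copies (13.0%) passed, each with the crosslinked ratio above the other, where 11.6% of all tested features did.

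Most copies moved the same way with and without crosslinking. On the log2(RPM + 1) scale, used where there is 1 library, 305 of the 324 copies had a non-crosslinked ratio below 0, with a median of -0.99, against -0.69 in the crosslinked libraries. Below 0 without crosslinking were 94.1% of the ETn copies and 84.3% of all tested features, whose median was -0.41. Introns (91.2% below 0) and exons (80.7%) make up most of these features, while 42.3% of the other LTR copies, 13.9% of the SINE copies and 10.9% of the LINE copies were below 0. Of the 139 copies called lower with crosslinking, all 139 were also lower without it, with medians of -0.95 and -1.31 on this scale. Of the 14 called higher, 13 were also higher without crosslinking, and the median over all 14 was 0.15 without and 0.99 with crosslinking.

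The exception was MMETn-int_dup553, at 0.418 RPM in that input and 0.0712 RPM in its pull-down, the latter under the floor of 3 reads (0.228 RPM). Its interaction term was 3.83 (unadjusted p = 0.00808 in edgeR, adjusted p = 0.335). Of the copies with the highest levels, MMETn-int_dup212 went from 189.8 to 52.2 RPM without crosslinking and ETnERV-int_dup179 from 97.2 to 43.6 RPM.

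**Figure D4:**
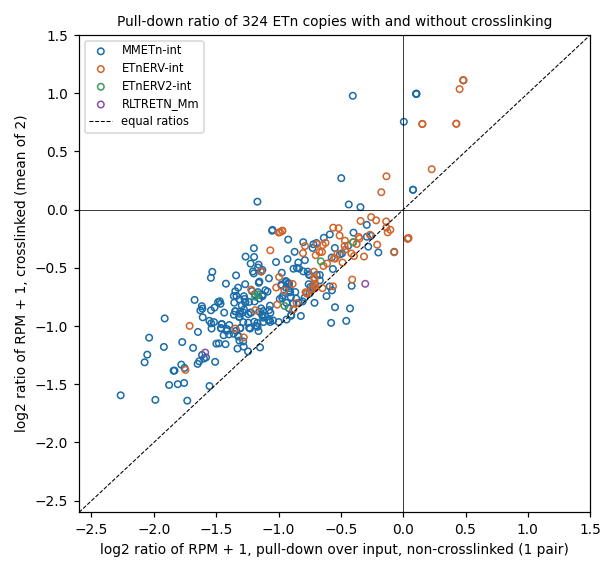
Log2 ratio of pull-down over input on the log2(RPM + 1) scale for the 324 tested copies, with the non-crosslinked pair on the horizontal axis and the mean of the 2 crosslinked libraries of each group on the vertical axis, coloured by name. Most points lie in the lower left quadrant and above the dashed line of equal ratios, with medians of -0.99 and -0.69.

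Between the inputs with and without crosslinking, the ETn sum differed little, unlike the sum of the other LTR copies. The ETn sum in the crosslinked inputs was level with that of the non-crosslinked input (log2 difference 0.00), while all other LTR copies together were at 5327 and 5089 RPM with crosslinking and at 2373 RPM without it (log2 difference 1.13). Among all LTR reads, the ETn share was 47.2% and 43.1% with crosslinking and 64.4% without it. By name, the log2 difference between these inputs was -0.06 for MMETn-int, 0.22 for ETnERV-int, 0.38 for RLTRETN_Mm, 0.69 for ETnERV3-int and 0.98 for ETnERV2-int. With 1 non-crosslinked input, these differences have no replicate check.

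In the pull-downs, the ETn copies and the pooled other LTR copies went opposite ways as sums. All LTR copies but ETn were at 5208 ± 169 RPM in the crosslinked inputs and at 6926 ± 213 RPM in the pull-downs (SD, n = 2 each), a ratio of 1.33 in each pair, where the ETn ratios were 0.571 and 0.532. The ETn share of all LTR reads was 27.8% and 23.3% in these pull-downs. The sum of the names starting with IAP, another active LTR family, had ratios of 0.931 and 1.05, and MMERVK10C with MMERVK9 had 1.15 and 1.07. MERVL-int with MT2_Mm, expressed in the early embryo like ETn, was the compared group nearest to ETn, with 0.654 and 0.747, and RLTR names other than RLTRETN_Mm had 2.01 and 1.94.

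Without crosslinking the same order held at its ends, with 0.374 for ETn, 0.608 for MERVL-int with MT2_Mm and 2.42 for the other RLTR names. These differences between sums were not tested. Of the 471 tested LTR copies outside ETn, 215 were called higher and 85 lower in edgeR's fit, with a median log2 ratio of 0.87. The IAP, MMERVK10C, MMERVK9 and MERVL copies among them had medians below 0, as the ETn copies did. Of the 10 tested IAP copies, 5 were called lower and 3 higher, with a median of -0.96, and of the 18 tested MMERVK10C and MMERVK9 copies, 16 had a ratio below 0 and 4 were called lower and 2 higher, with a median of -0.72. The single tested copy of MERVL-int and MT2_Mm was called lower (-0.94), and of the 96 tested RLTR copies other than RLTRETN_Mm, 48 were called higher and 2 lower, with a median of 2.43. Pre-mRNA features, at a median of -0.52 with 93.0% below 0, came nearest to the ETn copies among the classes compared, which were exons (median -0.26), introns (-0.19), pre-mRNA, LINE and SINE copies. LINE and SINE copies went the other way, with 79.1% of 411 tested LINE copies and 78.9% of 194 tested SINE copies called higher, and the filter could pass such a copy through the pull-downs alone.

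**Figure D5:**
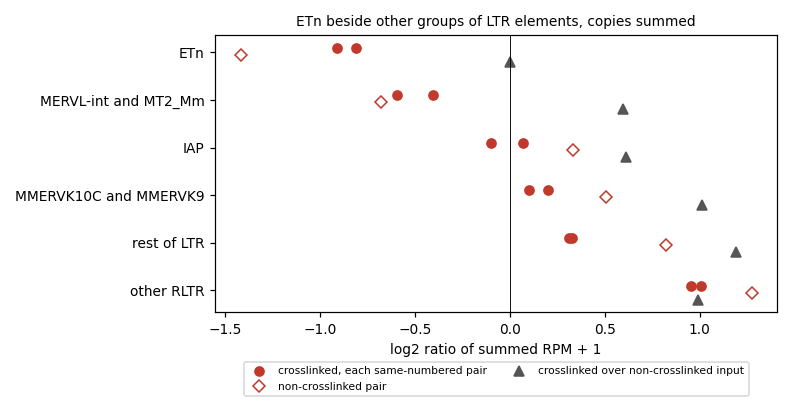
Log2 ratio of summed RPM + 1 for ETn and 5 other groups of LTR elements: pull-down over input in each crosslinked pair (filled circles) and in the non-crosslinked pair (open diamonds), and mean crosslinked input over non-crosslinked input (triangles). ETn lies farthest to the left on all 3 measures.

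Summed, the copies under the filter differed less between input and pull-down than all ETn copies together. The 3436 copies with a mean under 1 RPM summed to 266 and 215 RPM in the crosslinked inputs and 242 and 197 RPM in the pull-downs, which overlapped, a ratio of 0.912. By name, these sums had ratios of 0.815 for MMETn-int, 0.995 for ETnERV-int, 0.930 for ETnERV2-int and 1.08 for RLTRETN_Mm, each with overlap. ETnERV3-int, whose 331 copies all lay under the filter, had a ratio of 0.684 with both pull-downs below both inputs. Without crosslinking the ratio of the 3436 copies was 0.521. The copies at the filter's edge did not stand apart: ETnERV-int_dup171 and ETnERV-int_dup707 passed with means of 1.02 RPM, and MMETn-int_dup910 and MMETn-int_dup306 did not, with 0.993 and 0.985 RPM, and all 4 had ratios below 1.

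A table that the authors deposited gives 1 enrichment ratio per feature, without a stated formula. In the authors' deposited table, 784 ETn copies were listed among 216085 features, with a median ratio of 0.953 against 1.37 over all features, and 366 of the 784 (46.7%) had a ratio above 1, against 74.6% of all features. For the 324 tested copies the median in the authors' deposited table was 0.716, and 72 had a ratio above 1. By name, the medians in the authors' deposited table were 0.844 for MMETn-int (428 copies), 1.09 for ETnERV-int (272 copies), 1.24 for ETnERV2-int (16 copies), 0.910 for ETnERV3-int (22 copies) and 1.52 for RLTRETN_Mm (46 copies).

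The highest ETn ratios in the authors' deposited table belonged to copies with very few reads. RLTRETN_Mm_dup1264 was listed there with a ratio of 146 at rank 120 of all features, while its mean over the 4 crosslinked libraries was 0.168 RPM. MMETn-int_dup212, the copy with the most reads, was listed with a ratio of 0.515 in the authors' deposited table, and MMETn-int_dup760, called higher here, with 3.96.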

How the data were processed

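For each of the 6 libraries, the deposited files hold an expected count for every annotated feature, with fractions where a read matched more than 1 feature, and the RPM that the authors computed from it over all reads of the library. The authors also deposited 1 enrichment ratio per feature for the series, and how it was formed is not given in the sources used here. The submitters' processing notes name bcl2fastq 2.19, STAR 2.5.2b, bedtools 2.29.0 and the mm10 build without their roles. Whether PCR duplicates were removed is not given in the sources used here, so intervals and the floor of 3 reads cover counting error only. The files give names but no coordinates or sequences of copies, so none are printed. All sample columns were mapped (0 left over).

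Expected counts were rounded and fitted with edgeR 4.0.16 in R 4.3.3 (glmQLFit and glmQLFTest, library sizes equal to the annotated reads, no further factors, Benjamini-Hochberg threshold 0.05) over 39872 features, those whose mean in the 4 crosslinked libraries reached 1 RPM. Reads without annotation were left out of the library sizes. The SE beside an edgeR log2 ratio is the absolute ratio divided by the square root of the test's F statistic. The fit was repeated on a table with transposon copies summed by name after removing the suffix _dup and its number. The scripts were tested on simulated counts. Shares were compared with two-sided exact permutation tests (scipy 1.17.1). Descriptive ratios used log2(RPM + 1), which understates the change of low copies.

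All ETn names were named. Of single copies, the 5 with the highest mean and up to 5 called higher and 5 called lower, without overlap between groups and with the largest absolute log2 ratio, were named, copies with identical counts in all 6 libraries once. Other copies, among them the rest of the 14 called higher, the copies flagged for a closer look and those of the authors' table, were chosen after their values were seen. The members, marker genes, related groups and tests were chosen with earlier results of these data known. Alternatives were other filters and pseudocounts, TMM factors, other library sizes, rRNA left out, identical features once, transposon names alone, limma 3.58.1, DESeq2 1.42.0, a replicate block, all 6 libraries in 1 fit, copies with whole counts, and each crosslinked library left out.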

Additional observations from a re-analysis of the deposited data

Results flagged for a closer look

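In 8 cases a tested copy moved one way in both crosslinked pairs and the other way in the non-crosslinked pair, on the log2(RPM + 1) scale. With 1 non-crosslinked pair this comparison of signs was not tested for these copies beyond the interaction term, which called 0 copies. MMETn-int_dup720 had a non-crosslinked ratio of -1.17 and crosslinked ratios of 0.12 and 0.02. MMETn-int_dup434 had -0.50 without crosslinking and 0.33 and 0.21 with it. For MMETn-int_dup553, called higher with crosslinking, the values were -0.40 without and 1.18 and 0.77 with crosslinking, and it was the only copy called higher among the 8.

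The others lay close to 0 on one side. ETnERV-int_dup340 had -0.18 without crosslinking against 0.06 and 0.24, and ETnERV-int_dup738 had -0.13 against 0.03 and 0.54. In the opposite direction, ETnERV-int_dup141 had 0.043 without crosslinking and -0.24 in both crosslinked pairs. ETnERV-int_dup750 and MMETn-int_dup624, which had the same values, had 0.036 without crosslinking and -0.25 in both crosslinked pairs.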

How the results depend on the processing

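The count of copies called lower (139) was 59 with a filter of 5 RPM (121 copies tested), 19 with DESeq2 (110 copies in both directions together at an unadjusted p under 0.05), 0 with no filter on low values, and 55 to 177 with 1 crosslinked library left out. The count called higher (14) was 24 at 0.5 RPM, 3 at 5 RPM, 9 with identical features taken once, 0 with no filter, where edgeR had 378 of 2062 copies in both directions together at an unadjusted p under 0.05, and 14 to 15 with 1 library left out. The count of names called lower (1) was 0 with no filter, TMM factors, rRNA left out and DESeq2, and 0 to 1 with 1 library left out. Over all single features, 6.87% were called lower and 9.29% higher at 5 RPM, and 1.98% and 5.41% at 0.5 RPM. With identical features taken once, these shares were 4.38% and 7.87%, and with no filter 0 of 942743 features were called. For all ETn summed (-0.76), limma gave -0.86, the range with 1 library left out was -0.97 to -0.59, and the 114 copies with whole counts (within 1e-06 of a read) alone (41, 39, 84 and 62 reads in the crosslinked libraries, 0.101% of the ETn RPM) turned it to 1.12 (edgeR adjusted p = 0.0184). The difference between the ratios with and without crosslinking (0.55) turned to -0.044 with TMM factors and ran from 0.35 to 0.73 with 1 library left out. RLTRETN_Mm (-0.06) turned to 0.14 with TMM factors and with DESeq2, to 0.050 with rRNA left out, and ran from -0.18 to 0.066 with 1 library left out. The cause of these changes was not tested. The share of ETn reads (ratio 0.553) ran from 0.476 to 0.631 with 1 library left out. Pseudocounts of 0.1 and 5 moved the median ratio of the copies to -0.90 and -0.35. With the replicate number as a block, 186 copies were called lower and 14 higher, where 4.15% and 6.34% of all tested features were. In that fit all ETn summed gave -0.77 (edgeR adjusted p = 0.0603) and MMETn-int_dup827 lost its call (adjusted p = 0.0559). Deviations of same-numbered libraries correlated at 0.111 over all tested features and 0.0644 over the ETn copies, and the labels do not say what the number marks. Under the alternatives, 202 values of named copies kept direction and call and 16 kept only the direction. Replicates differed by more than counting error over all features (chi-square per degree of freedom 5.96 for inputs and 6.84 for pull-downs). Over the ETn copies, with the 2 libraries scaled to their own ETn totals, it was 0.712 and 0.660. That scaling takes out the shift that the copies share between replicates, so these values cover only how reads were spread among the copies. Over all features, the libraries were scaled to the totals of all tested features. The copies hold fractions of shared reads and are not independent counts, so values below 1 do not show replicates closer than counting error.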

Other observations

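Same-group libraries differed in level across most ETn copies. Crosslinked pull-down 2 was below pull-down 1 for 305 of the 324 copies (median ratio 0.748), and crosslinked input 2 was below input 1 for 308 (median ratio 0.813). Summed, ETn had log2 ratios of -0.41 between the pull-downs and -0.31 between the inputs, library 2 over library 1, where all other LTR copies had -0.063 and -0.066. The difference between the inputs and the pull-downs was larger than either for the sum of all ETn, whose means were 4316 and 2388 RPM. The copies with whole counts in all 6 libraries, numbered 114 and had 8 reads in the non-crosslinked input and 14 in the non-crosslinked pull-down, against 41 and 39 in the crosslinked inputs and 84 and 62 in the crosslinked pull-downs. They were therefore higher in the pull-downs, opposite to the family sum, at a level of 0.101% of the ETn RPM. Why they differ was not tested.

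Between the inputs, the level of single copies with and without crosslinking varied by copy. The non-crosslinked input was above both crosslinked inputs for 61 of the 324 copies and below both for 147, with a median log2 difference of 0.12 in favour of the crosslinked inputs, against 0.48 over all tested features. RLTRETN_Mm_dup989 was at 6.28 RPM in the non-crosslinked input and at 2.61 and 1.84 RPM in the crosslinked inputs.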
